A study of Mus musculus with 2 samples.

Results

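Polycomb repressive complex genes were examined in 2 rhabdoid tumors (RT) of Dppa3-cre::Smarcb1 mice. The set was a list of 32 genes drawn up by name, 11 that encode subunits of Polycomb repressive complex 2 (PRC2) and 21 that encode subunits of Polycomb repressive complex 1 (PRC1), and all 32 were found among the 55416 genes counted. Both mice carried Cre recombinase driven from Dppa3, which is expressed in primordial germ cells, and a floxed allele of Smarcb1, which encodes a constant member of the SWI/SNF chromatin remodeler. The study describes these tumor-bearing mice as heterozygous Smarcb1 Fl/+, and no tumor of another genotype and no normal tissue was analyzed here. One tumor was labelled intracranial (trigeminal nerve) and the other extracranial (facial, maxillar), both were classified as MYC, and each was 1 bulk library from frozen tissue. With 1 library per location there were no replicates, so no difference below has a replicate check and none was tested. Each interval covers counting error only and compares these 2 libraries, not the 2 locations.

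Polycomb complexes keep developmental genes silent. PRC2 methylates histone H3 at lysine 27 (H3K27me3) through the catalytic subunit EZH2 or EZH1, and PRC1 ubiquitinates histone H2A through RING1 or RNF2, joined by 1 of several PCGF proteins that define the type of PRC1. SWI/SNF is known to oppose Polycomb on chromatin, and EZH2 inhibitors are in use against SMARCB1-deficient tumors, which is why the levels of these subunits are of interest in RT.

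The libraries held 34545846 counts (intracranial) and 26915696 counts (extracranial). The Polycomb genes took 0.131% of the counts in each, and the least counted member still had 129 and 102 counts, far over the floor of 3 counts that was treated as background. The targeted gene Smarcb1 had 365 and 530 counts, which is 10.5 and 19.8 CPM (counts per 1e6 of the scaled library size), and its reads come from all cells of the bulk tissue. The pieces differed in other cells. Keratinocyte markers (8 of 8 higher in the intracranial library) summed to 24628 and 0.598 CPM, and Krt5, Krt6a, Krt6b, Trp63 and Dsg3 had 0 counts in the extracranial library. Macrophage markers (7 of 7 higher in the extracranial library) summed to 2594 and 7738 CPM, endothelial markers (5 of 5 higher there) to 93.8 and 214 CPM, and neutrophil markers (4 of 4 with enough counts higher in the intracranial library) to 715 and 0.859 CPM. Most of the neutrophil sum in the intracranial library came from S100a8 (258 CPM) and S100a9 (416 CPM), whereas Mpo of the same list had 0 counts in both libraries. Schwann cell markers summed to 214 and 148 CPM and skeletal muscle markers to 37.4 and 9.38 CPM, with 5 of 5 higher in the intracranial library in each list, and Sox10 and Myh4 had 0 counts in the extracranial library. Of the 5 neuron markers 3 were higher in the extracranial library and 2 in the intracranial one (65.4 and 67.5 CPM), whereas B and plasma cell markers summed to 3.25 and 25.9 CPM and T cell markers to 12.0 and 29.4 CPM. Of the B and plasma cell markers 3 of 6, and of the T cell markers 3 of 6, were higher in the extracranial library. Keratinocytes and skeletal muscle lie outside the cranium, so these markers went against the location labels, and intracranial and extracranial below mean only what each tumor was labelled. The part of these cells in the Polycomb values was not tested, and in bulk tissue fewer cells of a type and less RNA per cell cannot be told apart.

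Start regions of the genes were looked up first, because Polycomb itself acts at CpG-rich promoters. RefSeq promoters (GRCm38.p6, 300 bases around each start site) were found for 28 of the 32 genes, 41 start sites in all, and not for Pcgf1, Cbx2, Rybp and Yaf2. Of these 41 windows, 33 (80.5%) were CpG-rich, meaning a GC content over 50% with a ratio of observed to expected CpG over 0.6, against 33.3% of all 32851 promoters in the table. Those promoters were not matched to the Polycomb genes in expression or gene type. The 250 bases upstream of Ezh2 and Ezh1, the 2 interchangeable catalytic subunits of PRC2, are shown with CpG in capitals, 23 in Ezh2 (chr6:47595031-47595280, minus strand) and 14 in Ezh1 (chr11:101226464-101226713, minus strand).
Ezh2: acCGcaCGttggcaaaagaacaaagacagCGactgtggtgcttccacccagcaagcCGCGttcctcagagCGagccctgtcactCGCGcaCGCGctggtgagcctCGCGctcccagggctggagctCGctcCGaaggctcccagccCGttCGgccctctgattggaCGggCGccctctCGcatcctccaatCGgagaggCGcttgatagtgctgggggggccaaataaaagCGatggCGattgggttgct
Ezh1: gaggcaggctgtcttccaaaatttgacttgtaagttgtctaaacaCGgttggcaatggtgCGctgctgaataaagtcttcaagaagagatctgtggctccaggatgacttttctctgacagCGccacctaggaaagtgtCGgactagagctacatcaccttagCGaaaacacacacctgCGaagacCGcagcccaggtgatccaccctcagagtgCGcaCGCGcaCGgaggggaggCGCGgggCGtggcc

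The E-box CACGTG, the motif bound by MYC and MAX among other factors, was searched because both tumors carry the MYC label. It reads the same on both strands. It was present in 7 of the 41 Polycomb windows (17.1%), in those of Bmi1, Cbx6, Cbx8, Pcgf2, Phc2, Phc3 and Rbbp4, against 7.15% of all promoters and 11.4% of the CpG-rich ones. Bmi1 and Pcgf2, which encode the 2 PCGF proteins of canonical PRC1, are shown with the E-box in capitals, beginning 215 bases before the start site of Bmi1 (chr2:18676768-18677017, plus strand) and 137 bases before that of Pcgf2 (chr11:97699649-97699898, minus strand).
Bmi1: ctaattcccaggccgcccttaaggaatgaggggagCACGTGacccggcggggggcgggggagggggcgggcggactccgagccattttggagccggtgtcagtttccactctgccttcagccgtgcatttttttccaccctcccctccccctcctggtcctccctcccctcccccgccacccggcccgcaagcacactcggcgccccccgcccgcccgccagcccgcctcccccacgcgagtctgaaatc
Pcgf2: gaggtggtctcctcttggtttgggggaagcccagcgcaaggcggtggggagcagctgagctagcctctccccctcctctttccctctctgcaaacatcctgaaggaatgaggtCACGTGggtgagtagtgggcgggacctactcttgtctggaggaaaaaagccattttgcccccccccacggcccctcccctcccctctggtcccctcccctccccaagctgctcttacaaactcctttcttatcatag
A match is only a description of these letters. The 7 genes with an E-box did not share a direction, since Bmi1, Pcgf2 and Rbbp4 were higher in the intracranial library and Cbx6, Cbx8, Phc2 and Phc3 in the extracranial one.

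All 32 Polycomb genes were expressed in both tumors. Levels ranged from 3.71 CPM (Phf19) to 159 CPM (Rbbp4) in the intracranial library and from 3.81 CPM (Cbx2) to 158 CPM (Rbbp7) in the extracranial library. To compare genes with each other, CPM were divided by the summed exon length in kilobases. On this scale the Polycomb genes lay at a median percentile of 60.0 (intracranial) and 64.6 (extracranial) among 16543 protein-coding genes, with 21 of 32 above the median of those genes in each library. Rbbp7, which encodes a histone-binding protein shared with other chromatin complexes, was the highest at 48.7 and 54.3 CPM per kilobase. Per kilobase of the longest transcript, however, Pcgf1 (71.4) lay above Rbbp7 (63.1) in the intracranial library. Phf19 was the lowest in the intracranial library (0.737 CPM per kilobase) and Cbx2 in the extracranial library (0.895 CPM per kilobase).

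**Figure D1:**
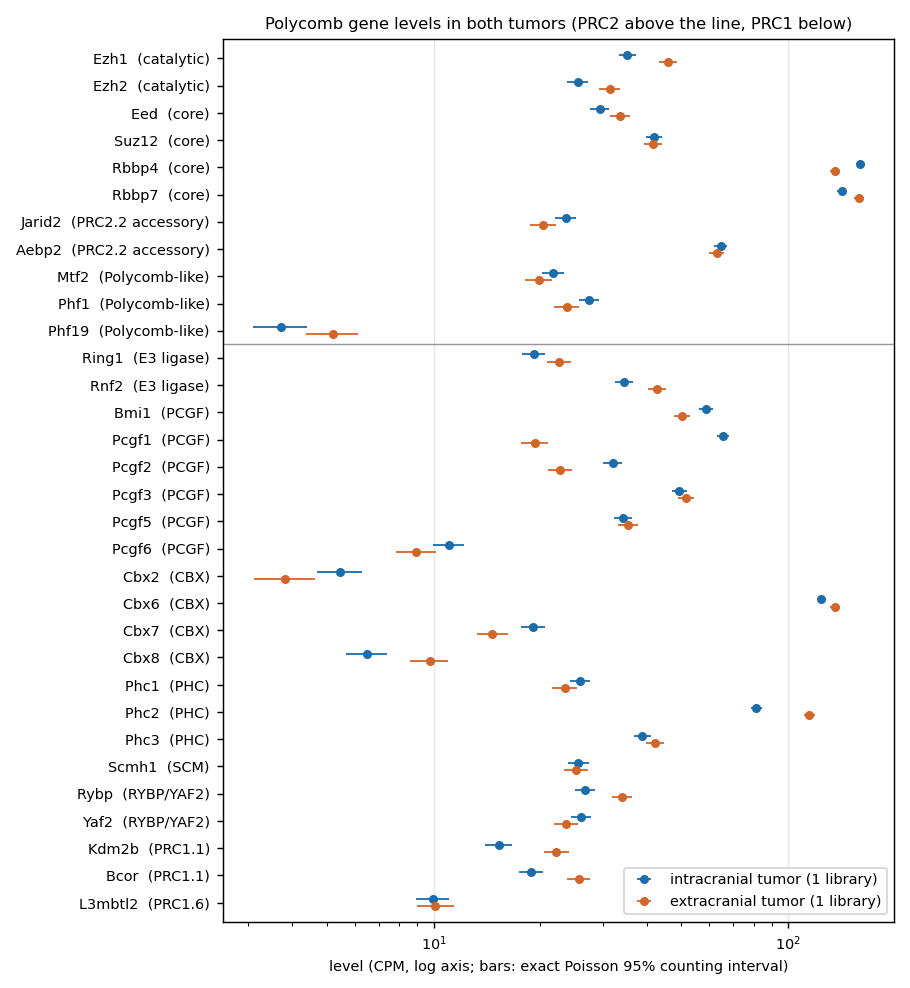
Level of each Polycomb gene in CPM on a log axis in the intracranial (blue) and extracranial (orange) library, 1 library each, with exact Poisson 95% counting intervals as bars. Both points lie close together for most genes, whereas Pcgf1 is at 65.6 CPM in the intracranial and 19.3 CPM in the extracranial library.

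Between the libraries the Polycomb genes differed little. Ratios are given as log2 of extracranial over intracranial, so that positive values mean higher in the extracranial library. The median was 0.04 over the 32 genes, beside -0.04 over the 21977 genes with 10 or more counts. The median size of a difference, ignoring its sign, was 0.23, beside 0.44 over the 21977 genes. It was 0.34 over the 15582 genes with 100 or more counts, a minimum that all Polycomb genes passed. Of the 32 genes, 28 (87.5%) lay within 0.5 on the log2 scale, beside 62.8% of the genes with 100 or more counts. These genes were not matched to the Polycomb genes in depth, and the part of depth in the comparison was not tested.

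A gene was called where the whole 95% counting interval of its ratio lay beyond 2-fold. Of the 32 Polycomb genes, 1 was called (Pcgf1, higher in the intracranial library), beside 15.6% of all genes with 10 or more counts and 9.77% of them in that direction. None was called as higher in the extracranial library, beside 5.86% of all genes. Pcgf1 was also the 1 Polycomb gene whose whole interval lay beyond 1.5-fold, beside 23.8% of all genes, and 0 had one beyond 4-fold, beside 7.19%. Under the looser rule that the interval excludes an equal level, 23 Polycomb genes were called, 14 higher in the extracranial and 9 higher in the intracranial library. This is 71.9% of the 32, close to the 71.7% of genes with 100 or more counts (61.4% of those with 10 or more), of which 35.7% were higher in the extracranial and 36% in the intracranial library. With total counts in place of the scaled library sizes the split was 13 and 11, since the interval of Phc3 then included 0 and those of Phc1 and Yaf2 lay below 0.

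**Figure D2:**
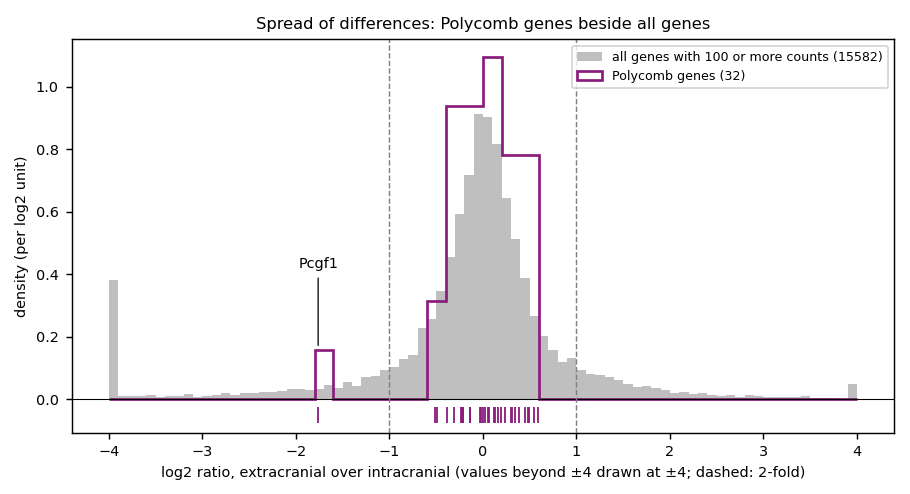
Density of log2 ratios (extracranial over intracranial, horizontal axis) for the 15582 genes with 100 or more counts (gray) and for the 32 Polycomb genes (purple outline and ticks), with 2-fold marked by dashed lines. The Polycomb genes other than Pcgf1 lie between -0.51 and 0.59, inside the body of the gray distribution.

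In PRC2, none of the 11 genes differed by as much as 2-fold, and the log2 ratios ranged from -0.23 to 0.48. Ezh2, the catalytic subunit found mainly in dividing cells and the target of EZH2 inhibitors, had 885 counts in the intracranial and 841 in the extracranial library, which is 25.5 CPM (95% Poisson interval 23.8 to 27.2) and 31.4 CPM (29.3 to 33.6). It was thus higher in the extracranial library by a log2 ratio of 0.30 (0.17 to 0.44). Ezh1, its paralog in resting cells, had 1223 and 1227 counts, or 35.2 and 45.9 CPM, with a log2 ratio of 0.38 (0.27 to 0.50). Both catalytic genes were therefore higher in the extracranial library, and the ratio of Ezh2 to Ezh1 differed between the libraries by a factor of 0.947, with an interval of 0.836 to 1.07 that includes 1. Within a library, the level of Ezh2 per kilobase of summed exons was 0.806 times that of Ezh1 (0.739 to 0.880) in the intracranial and 0.764 times (0.699 to 0.834) in the extracranial library. Per kilobase of the longest transcript the same values were 1.09 and 1.03, so which of the 2 was the higher depended on the length used.

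Genes of cell division were higher in the extracranial library as well. Of 16 proliferation genes 0 were called beyond 2-fold, beside 15.6% of all genes with 10 or more counts. However, 14 had an interval above 0 and none had one below 0, beside 35.7% and 36% of genes with 100 or more counts. Their log2 ratios ranged from -0.10 (Rrm2) to 0.78 (Birc5) around a median of 0.41. Mki67 was at 90.6 and 132 CPM and Top2a at 73.7 and 100.7 CPM. The value of 0.30 for Ezh2 lay inside this range, and the part of cell division in it was not tested.

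The remaining core subunits stayed closer to an equal level. Eed, which reads H3K27me3 and stimulates the enzyme, had 1021 and 899 counts (29.4 and 33.6 CPM, log2 ratio 0.19, 0.06 to 0.32). Suz12, the scaffold of the complex, had 1452 and 1115 counts, or 41.8 and 41.7 CPM, and its interval of -0.12 to 0.11 included 0. The level per kilobase of summed exons was 7.68 and 8.78 for Eed and 8.45 and 8.43 for Suz12, beside 8.54 and 10.9 for Ezh1 and Ezh2 summed. Per kilobase of the longest transcript the sum of Ezh1 and Ezh2 was 17.5 and 22.2, so the comparison of these levels depends on the length used.

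Rbbp4 and Rbbp7, closely related histone chaperones, went opposite ways. Rbbp4 was at 159 and 136 CPM (log2 ratio -0.23, -0.29 to -0.17) and Rbbp7 at 142 and 158 CPM (0.16, 0.10 to 0.22). The ratio of Rbbp4 to Rbbp7 was lower in the extracranial library by a factor of 0.763 (0.720 to 0.810). Of the windows of read length (72 bases) in Rbbp4 transcripts, 15.5% also occur in transcripts of other genes that overlap it on the opposite strand, among them Sync with 277 and 58 counts. In Rbbp7, 7.36% of the windows occur in other genes, among them Gm6382 (263 and 250 counts) and Txlng on the opposite strand (512 and 289 counts). How reads were assigned by strand, or where they match several genes, was not stated. The counts of Rbbp4 and Rbbp7 carry that uncertainty.

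The accessory subunits decide where PRC2 binds. Jarid2 and Aebp2 form the PRC2.2 type. Jarid2 was at 23.6 and 20.4 CPM (log2 ratio -0.21, -0.37 to -0.05) and Aebp2 at 64.5 and 63.0 CPM (-0.03, -0.13 to 0.06). The Polycomb-like proteins Mtf2, Phf1 and Phf19 form the PRC2.1 type. Phf1 gave 63.4% and 60.2% of their summed level per kilobase, Mtf2 30.7% in each library and Phf19 5.92% and 9.11%. Phf19 had only 129 and 139 counts, and its log2 ratio of 0.48 (0.13 to 0.84) was the largest in PRC2. For Phf1 (27.5 and 23.7 CPM, -0.21, -0.36 to -0.07), 39.3% of the exon length overlaps Cuta on the opposite strand, a gene with 1606 and 1325 counts, so the level of Phf1 is uncertain.

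**Figure D3:**
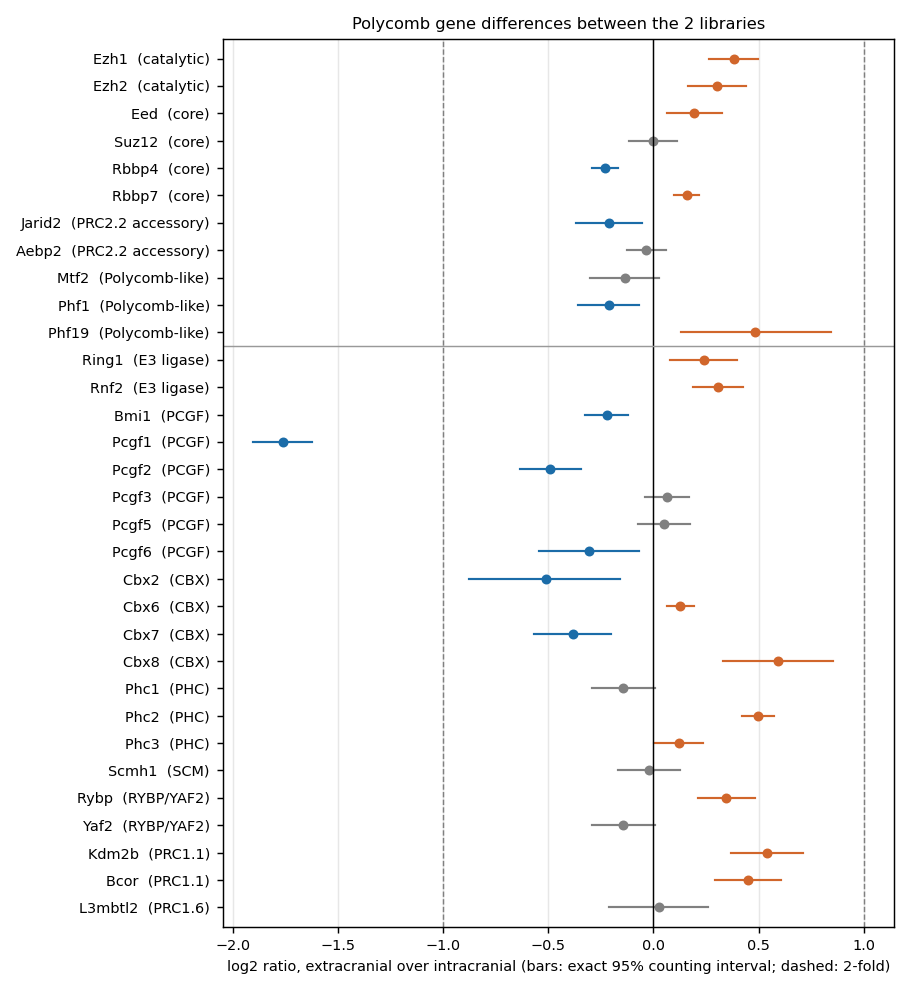
Log2 ratio of each Polycomb gene, extracranial over intracranial, with exact 95% counting intervals as bars (orange where the interval lies above 0, blue where it lies below 0, gray where it includes 0) and 2-fold as dashed lines. Pcgf1 at -1.76 is the only gene beyond a dashed line, and the others lie on both sides of 0 in PRC2 and in PRC1.

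In PRC1, the gene that stood apart was Pcgf1, which encodes the PCGF protein of the variant complex PRC1.1, known to be brought to CpG islands by KDM2B. It had 2278 counts in the intracranial and 517 in the extracranial library, or 65.6 CPM (62.9 to 68.3) and 19.3 CPM (17.7 to 21.1). This is a 3.39-fold higher level in the intracranial library (log2 ratio -1.76, -1.90 to -1.62). The next largest difference among the Polycomb genes was that of Cbx8, at 1.51-fold.

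The partners of PCGF1 in PRC1.1 went both ways. Kdm2b, whose CXXC domain binds unmethylated CpG, had 530 and 594 counts (15.3 and 22.2 CPM, log2 ratio 0.54, 0.37 to 0.71), and Bcor, a corepressor, had 653 and 686 counts (18.8 and 25.6 CPM, 0.45, 0.29 to 0.60). Both were higher in the extracranial library, where Pcgf1 was lower. Bcorl1, Skp1a and Usp7 were instead higher in the intracranial library like Pcgf1. Bcorl1 was at 14.9 and 11.2 CPM (log2 ratio -0.41, -0.62 to -0.20), Skp1a at 148 and 131 CPM (-0.18, -0.24 to -0.12) and Usp7 at 98.2 and 92.5 CPM (-0.09, -0.16 to -0.01), although the interval of Usp7 included 0 under the DESeq2, upper quartile and protein-coding TMM scalings. Of the Kdm2b windows of read length, 11.5% occur in other genes, among them Rnf34 (953 and 741 counts).

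Genes beside Pcgf1 on chromosome 6 were examined next, and are named here after their values were seen. Tlx2, a homeobox gene that lies 7575 bases away on the opposite strand, had 3688 and 356 counts (log2 ratio -3.00, -3.16 to -2.84). Gm37092, an unclassified transcript between the 2 genes and 1752 bases from Pcgf1, had 509 and 31 counts (-3.66), and Dqx1, a helicase gene beyond Tlx2, had 645 and 106 counts (-2.23). On the other side Lbx2 had 21 and 33 counts (1.03, 0.20 to 1.89). Pcgf1, Gm37092, Tlx2 and Dqx1 were thus all higher in the intracranial library and Lbx2 in the extracranial one. Across all 32 Polycomb genes, 55 different nearest protein-coding neighbors had 10 or more counts, Cbx2 and Cbx8 among them as neighbors of each other, and 12 (21.8%) were called beyond 2-fold, 6 in each direction, beside 15.6% of all genes. In addition, 9.98% of the Pcgf1 windows of read length occur in Gm8930, which had 196 and 44 counts. The part of the neighbors and of Gm8930 in the Pcgf1 counts was not tested.

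The other PCGF genes differed by at most 1.40-fold. Bmi1 (PCGF4) and Pcgf2 serve canonical PRC1, and both were higher in the intracranial library. Bmi1 was at 58.6 and 50.2 CPM (log2 ratio -0.22, -0.32 to -0.12) and Pcgf2 at 31.97 and 22.8 CPM (-0.49, -0.64 to -0.35), so that the ratio of Bmi1 to Pcgf2 was higher in the extracranial library by a factor of 1.204 (1.07 to 1.36). Pcgf3 (49.4 and 51.6 CPM) and Pcgf5 (34.2 and 35.4 CPM), both of variant PRC1, had intervals that included 0. Pcgf6, which belongs to PRC1.6 with L3mbtl2, was at 11.1 and 8.93 CPM (-0.31, -0.55 to -0.07), whereas L3mbtl2 was at 9.96 and 10.1 CPM (0.02, -0.21 to 0.26). Of the windows of read length, 11.9% in L3mbtl2 also occur in Chadl on the opposite strand (71 and 75 counts) and 10.7% in Bmi1 occur in other genes, mainly Gm5946 (233 and 139 counts), so both levels carry that uncertainty.

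Per kilobase of summed exons, Pcgf1 gave 54.0% of the summed level of the 6 PCGF genes in the intracranial library and 28.7% in the extracranial library. Bmi1 gave 20.03% and 31.0%. These shares depended on the length used. Pcgf1 gave 61.5% and 35.4% per kilobase of the longest transcript, and 26.1% and 10.3% of the summed CPM without division by length. Its share was lower in the extracranial library on each of the 3 scales, but the highest PCGF gene there was Bmi1 per kilobase of summed exons, Pcgf1 per kilobase of the longest transcript and Pcgf3 in CPM. The sum of all 6 was 73.7 and 40.8 CPM per kilobase of summed exons, a 1.81-fold difference, and without Pcgf1 it was 33.9 and 29.1, a 1.17-fold difference.

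**Figure D4:**
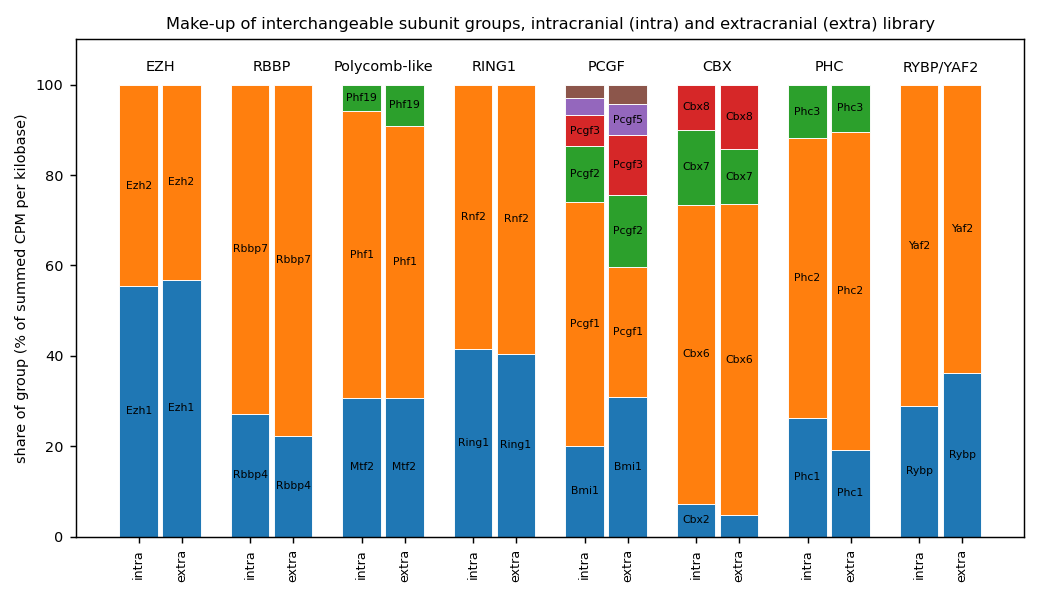
Share of each gene in the summed CPM per kilobase of summed exons (%) of groups of subunits that can replace each other, with the intracranial (left) and extracranial (right) library of each pair and 100% as the total of the genes shown, where Pcgf5 and Pcgf6 fill the unlabeled top segments in the PCGF bars, and the CBX bars hold only the 4 CBX genes examined. Pcgf1 takes 54.0% of the PCGF bar in the intracranial and 28.7% in the extracranial library (26.1% and 10.3% in CPM without division by length).

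Both E3 ligase genes of PRC1 were slightly higher in the extracranial library. Rnf2 (RING1B), the main ligase in early development, had 1196 and 1139 counts (34.4 and 42.6 CPM, log2 ratio 0.31, 0.19 to 0.42). Ring1 had 666 and 605 counts (19.2 and 22.6 CPM, 0.24, 0.08 to 0.40). Per kilobase Rnf2 was 1.41 times (1.28 to 1.55) and 1.48 times (1.34 to 1.64) as high as Ring1, and the 2 ratios differed by less than counting error (factor 1.05, 0.912 to 1.205).

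CBX proteins carry the chromodomain with which canonical PRC1 reads H3K27me3, and their genes differed in both directions. Cbx6 was the highest of the 4 at 124 and 135 CPM (log2 ratio 0.13, 0.06 to 0.19) and gave 66.1% and 68.7% of their summed level per kilobase. Cbx8 had 225 and 261 counts and was higher in the extracranial library (0.59, 0.33 to 0.85). Cbx7, the main CBX gene of embryonic stem cells, had 664 and 392 counts (-0.38, -0.57 to -0.20), and Cbx2 had 189 and 102 counts (-0.51, -0.87 to -0.16). Both were higher in the intracranial library. Cbx2 and Cbx8 lie next to each other on chromosome 11, 5034 bases apart on opposite strands, and nevertheless differed in opposite directions.

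Among the Polyhomeotic genes, which polymerize canonical PRC1, Phc2 stood out. It had 2826 and 3070 counts (81.3 and 115 CPM, log2 ratio 0.50, 0.42 to 0.57) and gave 61.8% and 70.4% of the summed PHC level per kilobase. Phc1 (25.9 and 23.4 CPM, -0.14, -0.29 to 0.01) and the related Scmh1 (25.6 and 25.2 CPM, -0.02, -0.17 to 0.12) had intervals that included 0, and Phc3 was at 38.8 and 42.2 CPM (0.12).

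Rybp and Yaf2 encode the partners that define variant PRC1 and exclude CBX proteins. Rybp was at 26.7 and 34.0 CPM (log2 ratio 0.35, 0.21 to 0.48) and Yaf2 at 26.1 and 23.6 CPM (-0.14, -0.29 to 0.01). Per kilobase Yaf2 was 2.47 times (2.25 to 2.71) as high as Rybp in the intracranial and 1.76 times (1.59 to 1.95) in the extracranial library, and the ratio was lower in the latter by a factor of 0.712 (0.620 to 0.818). Rybp shares 7.07% of its windows with the copy Rybp-ps, which had 35 and 39 counts.

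Genes that work with or against Polycomb were described from lists written alongside. Of 25 partners of variant PRC1 and other Polycomb proteins, 1 was called, beside 15.6% of all genes with 10 or more counts. The list median was -0.06, with 6 intervals above 0 and 11 below 0. The called gene was Scml4, a Sex comb on midleg homolog, with 10 and 50 counts and higher in the extracranial library (log2 ratio 2.699, 1.70 to 3.84). Auts2, the activator in PCGF3 and PCGF5 complexes, had 153 and 45 counts, but its interval of -1.90 to -0.90 reached inside 2-fold. The highest was Cbx3 at 148 and 140 CPM and the lowest by the intracranial level Scml4 at 0.288 and 1.87 CPM. Of the 4 PRC2 partners none was called among the 3 with enough counts. Lcorl was the highest (13.5 and 12.2 CPM), and AU022751, which is the EZH2 inhibitor Ezhip, had 4 and 0 counts.

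Among 13 genes of the PR-DUB complex and other H2A deubiquitinases, which remove the PRC1 mark, 1 was called (all genes: 15.6%). Asxl3, a homolog of Drosophila Additional sex combs, had 8 counts in the intracranial and 351 in the extracranial library, or 0.230 and 13.1 CPM (log2 ratio 5.83, 4.84 to 7.06). The paralogs Asxl1 (54.3 and 55.8 CPM) and Asxl2 (29.5 and 31.6 CPM) had intervals that included 0, and Ogt, at 308 and 241 CPM, was the highest of the list. The list median was -0.15. Neither of the H3K27 demethylase genes was called, with Kdm6a at 27.9 and 24.0 CPM (-0.22, -0.36 to -0.07) and Kdm6b at 25.8 and 20.7 CPM (-0.32, -0.48 to -0.17). Of 14 Trithorax and other opposing writers none was called (all genes: 15.6%), from Kmt2d at -0.55 to Rbbp5 at 0.26, with a median of -0.06. Nsd1 was the highest at 87.8 and 103.1 CPM, and Rbbp5 the lowest at 24.3 CPM in the intracranial library.

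**Figure D5:**
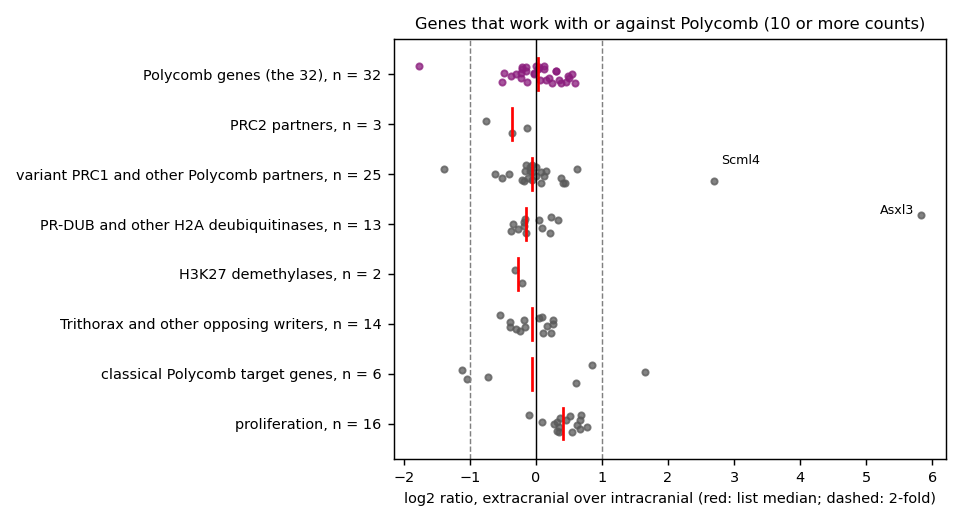
Log2 ratio (extracranial over intracranial, horizontal axis) of single genes with 10 or more counts in the Polycomb set (purple) and in 7 lists of related genes (gray), with list medians in red and 2-fold as dashed lines. Scml4 at 2.699 and Asxl3 at 5.83 lie far from the rest of their lists, and the proliferation list has the highest median (0.41).

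Of 13 classical Polycomb target genes, 6 had 10 or more counts. None was called beyond 2-fold, beside 15.6% of all genes with 10 or more counts. Their median log2 ratio was -0.06, because they differed in both directions. Ignoring sign, the median size of a difference was 0.94, beside 0.44 over all genes with 10 or more counts. This median rested partly on low counts. Pax6 had 8 and 2, Foxa2 7 and 17, Gata6 58 and 27 and Sox17 78 and 108. For Pax6 the extracranial count was set to 3, and its interval of -4.90 to 0.70 included 0. The targets were not matched to all genes in depth, and the part of depth was not tested. None of the 6 lay within 0.5, and 3 had an interval above 0 and 2 one below 0. Gata4, Neurog1, Neurog2, Olig2, Nkx2-2 and Wt1 had 0 counts in both libraries, and T, the Brachyury gene, had 0 and 1. Cdkn2a, the tumor suppressor locus of INK4A and ARF, was the highest target at 29.3 and 44.8 CPM (1018 and 1198 counts, log2 ratio 0.61, 0.49 to 0.73). Cdkn2b beside it, which encodes INK4B, had 347 and 123 counts and was higher in the intracranial library (-1.12, -1.43 to -0.82).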

How the data were processed

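Bulk RNA-seq of 2 tumors was analyzed, 1 labelled intracranial and 1 labelled extracranial. From poly(A) RNA the authors made strand-specific libraries and read 1 end of each fragment. STAR (2.7.9a) placed the reads on GRCm39 with Ensembl gene models, and featureCounts counted them per gene. The deposited values are raw read counts per gene. Strand and multi-mapping settings were not given in the sources used here.

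Counts were scaled to CPM with the TMM factors of edgeR (version 4.0.16, R 4.3.3), 1.01 and 0.994. Symbols, biotypes and exon lengths came from GENCODE M21 (GRCm38), which matched 52135 of the 55416 IDs (94.08%). Levels carry exact Poisson 95% intervals and ratios conditional exact binomial 95% intervals. Paralog ratios were compared by the conditional odds ratio (SciPy 1.17.1). Counts of 3 or fewer were set to 3 in ratios. Called means an interval wholly beyond 2-fold among genes with 10 or more counts. The planned quasi-likelihood fit needs replicates and could not be made, so no p-value is given. Reads carry no molecular identifiers, so intervals and floors cover counting error only.

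All members are named, and other listed genes where called or highest or lowest in their list. Auts2, Asxl1, Asxl2, Kmt2d, Mki67, Top2a, Rrm2, Birc5, Cdkn2b, Bcorl1, Skp1a, Usp7 and the genes beside Pcgf1 were named after their values were seen. The same holds for Gata6, Sox17, Foxa2 and Pax6. Levels per kilobase and shares within a group of subunits depend on the length used. Members, lists and rules were chosen with earlier results of these data known. The interval and call steps were tested on simulated data. Alternatives were DESeq2 (1.42.0) size factors, total counts, upper quartile, protein-coding TMM, other folds and count minimums, a prior count of 2 and other lengths.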

Additional observations from a re-analysis of the deposited data

How the results depend on the processing

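No paired analysis was possible because only 1 tumor stood for each location, and for the same reason no replicate could be left out. The number of Polycomb genes called was 1 under every alternative except an interval beyond 4-fold, which gave 0. The 4 other scalings shifted all log2 ratios together by -0.02 to 0.04, left every single Polycomb ratio inside its counting interval, and moved the median of the 32 genes to between 0.02 and 0.07. Set against the proliferation list, whose own median of 0.41 was subtracted, the median of the 32 genes was -0.37. Its sign was thus reversed under this setting. Over all genes, 5231 were called beyond 1.5-fold, 1581 beyond 4-fold and 6063 by the ratio alone, against 3434.

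Paralog ratios within a library depended on the length used. In CPM without division by length, the log2 ratios (intracranial and extracranial) were -0.47 and -0.54 for Ezh2 over Ezh1, 0.17 and -0.22 for Rbbp4 over Rbbp7, 0.84 and 0.91 for Rnf2 over Ring1, 0.87 and 1.14 for Bmi1 over Pcgf2, and -0.0346 and -0.52 for Yaf2 over Rybp. Per kilobase of the longest transcript they were 0.13 and 0.0491 for Ezh2 over Ezh1, -0.89 and -1.28 for Rbbp4 over Rbbp7, and 0.34 and 0.61 for Bmi1 over Pcgf2. The changes of sign follow from the lengths, which cancel in comparisons between the libraries.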
